A study of Rattus norvegicus with 421 samples.

Results

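The livers described here came from rats given thioacetamide (TAA) by daily gavage at 19.2 mg/kg and taken after 3 or 7 days. All arrays whose titles begin with TAA were used, 3 at day 3 and 3 at day 7, which is 6 of the 421 arrays of the series. The series profiled the livers of male Wistar rats with Affymetrix RAE230A arrays after short treatment with carcinogens and non-carcinogens. TAA is spelled Thioacetamid in the labels. The TAA animals were Crl:WI[Gl/BRL/Han]IGS BR rats of 8 to 10 weeks, dosed once a day, and each liver was removed 1 day after the last dose. Their controls were the rats of vehicle group CMC_1D, of the same strain and age, which received carboxymethylcellulose at 0 mg/kg TAA for 3 or for 7 days. For comparison, values are given for rats set against the same vehicle group that received acetamide (AA, 3000 mg/kg), methapyrilene (MPy, 60 mg/kg) or aflatoxin B1 (AB1, 0.24 mg/kg). From the 5 rats of a treatment group, 3 had been picked for the arrays on their histopathology, so the values stand for chosen animals rather than for a random draw.

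Thioacetamide is a hepatotoxin that becomes harmful only after oxidation. Cytochrome P450 2E1 and flavin monooxygenases convert it to an S-oxide and then to a reactive S,S-dioxide, which binds proteins and lipids, mostly in the hepatocytes around the central vein. In rats, long administration is used as a model of liver fibrosis, cirrhosis and bile duct tumours. Acetamide is the same small molecule with oxygen in place of sulfur.

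Each array gave 15866 log2 values, 1 per probe set, from which 10411 genes could be named. Array medians were close, between 7.4 and 7.46 in the TAA groups and between 7.42 and 7.44 in the vehicle groups. The vehicle group of each day held 6 arrays, which lay in 3 pairs (arrays 1 and 2, 3 and 4, 5 and 6). Partner arrays differed by over 2-fold at 0 to 6 probe sets, against 24 to 71 for other pairs of vehicle arrays and a median of 50 over 388 replicate pairs in groups of 2 or 3 arrays elsewhere. Partners were therefore averaged and counted as 1 animal, although the labels do not state that they came from 1 liver. Each day thus compared 3 TAA livers with 3 vehicle samples, called vehicle livers or vehicle animals below. The hepatocyte markers Alb, Ttr, Apoa1, Apob and Serpina1 summed on the linear scale to between 99512 and 106693 in TAA livers and to between 97423 and 101740 in vehicle livers, and none of them was called. Differences are log2 changes of TAA minus vehicle ± the standard error (SE) of a limma fit over all groups. A gene was called where the Benjamini-Hochberg adjusted p over all probe sets was below 0.05 and the change at least 1.5-fold, and a gene with several probe sets was read from the one with the highest mean.

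After 3 days TAA livers had 210 called genes (2.02% of 10411), 116 higher (1.11%) and 94 lower (0.903%) than vehicle livers. Among the genes with the largest rises were those of enzymes that detoxify reactive compounds (Gstm3, Gsta3, Akr7a3 and Aldh1a1). The cytochrome P450 Cyp2c12, Hspb1 and Ifrd1 were also among them. Enzymes of amine, ornithine, proline and kynurenine metabolism (Inmt, Oat, Prodh and Kynu) were among the genes that fell. After 7 days 195 genes were called (1.87%), 101 higher (0.97%) and 94 lower (0.903%), with Aldh1a1, Cyp2c12, Gsta3 and Akr7a3 at the top and Inmt, Oat and Obp3 at the bottom. The median change over all genes was -0.01 at day 3 and -0.02 at day 7. At the level of probe sets there were 289 calls at day 3 (1.82%) and 255 at day 7 (1.61%), and 3492 and 3664 probe sets had an unadjusted p below 0.05.

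**Figure D1:**
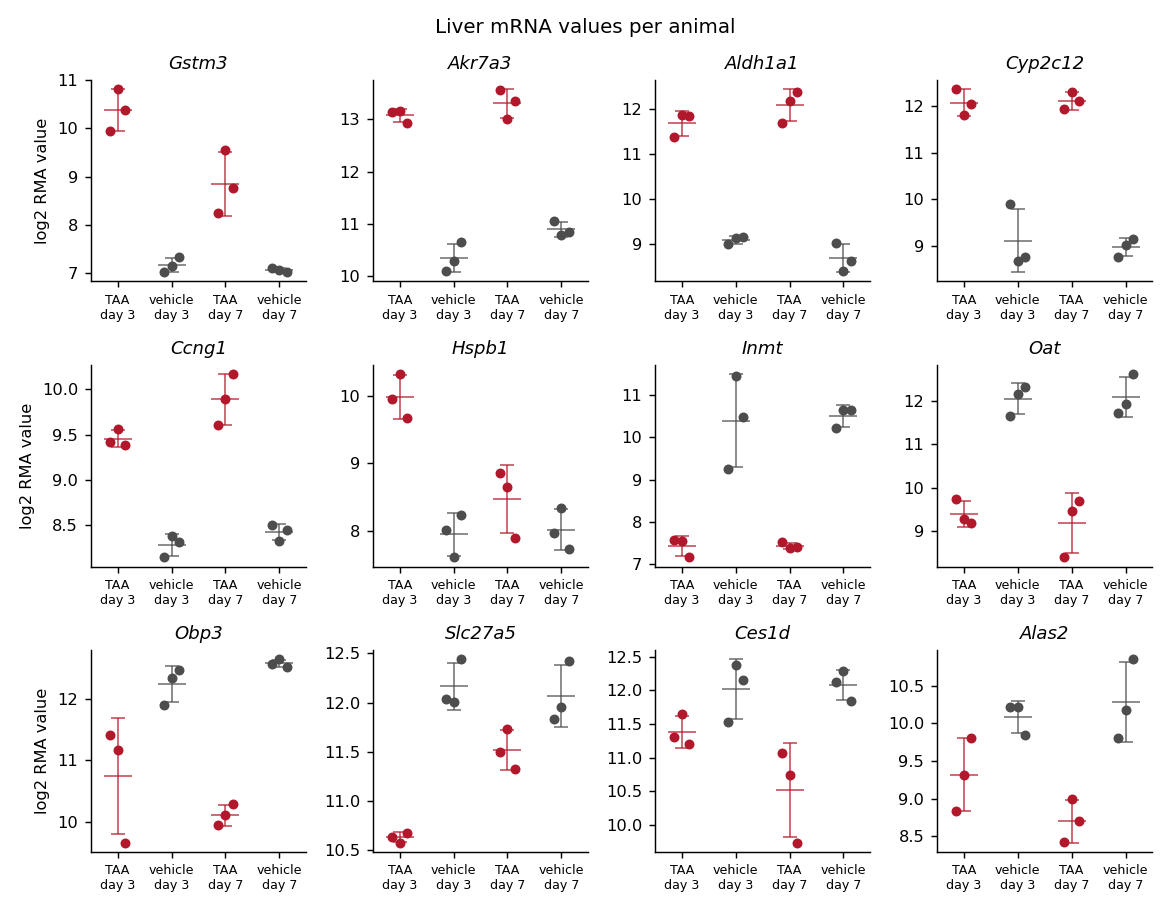
Log2 RMA values (vertical axis, own scale for each gene) of 12 genes per animal, with TAA in red and vehicle in grey for day 3 and day 7. Long horizontal lines are group means and short ones mark 1 SD (n = 3 animals each). For Gstm3, Akr7a3, Aldh1a1, Cyp2c12, Ccng1, Inmt, Oat and Obp3 no TAA value lay in the vehicle range at either day, while for Hspb1 the groups were apart at day 3 and overlapped at day 7.

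The enzymes that oxidise thioacetamide were not called at the mRNA level. Cyp2e1, the main oxidase, had values of 13.85, 14.00 and 13.90 in TAA livers at day 3, against 13.32, 13.84 and 13.59 in vehicle livers. All TAA values were above the vehicle values, but the difference of 0.33 ± 0.13 was not called (limma adjusted p = 0.0793). At day 7 it was 0.29 ± 0.13 (adjusted p = 0.15). Of the 5 genes on the list of thioacetamide oxidation, 1 was called at each day (20.0% higher, against 1.11% and 0.97% of all genes). This was Por, the reductase that supplies electrons to all microsomal P450 enzymes, which was higher by 0.92 ± 0.23 at day 3 (adjusted p = 0.00177) and by 0.76 ± 0.23 at day 7 (adjusted p = 0.016). The day 7 call of Por was lost without TAA animal 1 or vehicle animal 2, at 0.62 to 0.69. A second Por probe set was called at both days (1.37 and 0.93).

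Genes known as targets of NRF2, the transcription factor that responds to electrophiles, had the highest share of calls among the 45 gene lists counted in these livers. At day 3, 11 of 34 measured members rose (32.4%, against 1.11% of all genes) and none fell. At day 7, 13 of 34 rose (38.2%, against 0.97%) and again none fell. The median over the 34 members was 0.38 at day 3 and 0.50 at day 7, against -0.01 and -0.02 over all genes, and 31 and 32 members were above 0.

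Glutathione transferases couple glutathione to reactive metabolites. Gstm3 had values of 9.94, 10.81 and 10.38 in TAA livers at day 3, against 7.03, 7.16 and 7.33 in vehicle livers. At day 7 the TAA livers gave 8.24, 9.54 and 8.76 and the vehicle livers 7.12, 7.06 and 7.03. The groups were more than 2 log2 units apart at day 3, and at day 7 the lowest TAA liver was still above the highest vehicle liver. The changes were 3.20 ± 0.27 (9.22-fold, adjusted p = 7.03e-22) and 1.78 ± 0.27 (adjusted p = 1.61e-07). Gsta3 had 9.02, 8.82 and 9.19 in TAA livers at day 3, against 6.45, 5.83 and 6.34 in vehicle livers, a rise of 2.80 ± 0.52 (adjusted p = 1.6e-05). Its rise at day 7 was 2.76 ± 0.52 (adjusted p = 2.7e-05). Gstm5 rose by 0.81 ± 0.12 and 0.92 ± 0.12, while Gsta1, Gsta4 and Mgst1 had changes between -0.04 and 0.12 at both days. Probe sets of the Gst family, and likewise of the Ugt2b, Cyp2c, Sult2a, Akr1c and globin families, may detect near-identical relatives, so the member named is uncertain.

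Aldehydes and epoxides are handled by a further set of these genes. Akr7a3 codes for the aldo-keto reductase that reduces aflatoxin dialdehyde. Its values were 13.14, 13.16 and 12.93 in TAA livers at day 3, against 10.11, 10.30 and 10.65 in vehicle livers, and 13.56, 13.01 and 13.35 in TAA livers at day 7, against 11.06, 10.80 and 10.84. Every TAA liver was higher than every vehicle liver, by 2.72 ± 0.32 at day 3 (adjusted p = 3.95e-12) and by 2.41 ± 0.32 at day 7 (adjusted p = 1.33e-09). Aldh1a1, which oxidises retinal and lipid aldehydes, had 11.37, 11.86 and 11.84 in TAA livers at day 3, against 9.0, 9.13 and 9.16 in vehicle livers. Its change was 2.60 ± 0.47 at day 3 (adjusted p = 1.11e-05) and 3.42 ± 0.47 at day 7 (adjusted p = 3.95e-09), where the TAA livers reached 11.70, 12.19 and 12.39 and the vehicle livers 9.02, 8.41 and 8.62. Ephx1, the microsomal epoxide hydrolase, rose by 1.33 ± 0.17 and 1.32 ± 0.17, and Abcc2, the canalicular pump for glutathione and glucuronide conjugates, by 1.17 ± 0.20 and 1.12 ± 0.20 (adjusted p at most 6.62e-06 at both days).

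The genes of glutathione and thioredoxin supply moved by less. Gclc and Gclm, the subunits of the enzyme that limits glutathione synthesis, rose by 0.70 ± 0.20 and 0.68 ± 0.21 at day 3 and by 0.91 ± 0.20 and 0.93 ± 0.21 at day 7. Their day 3 calls were lost without TAA animal 2 or vehicle animal 3, that of Gclm also without TAA animal 1 or vehicle animal 1, at 0.58 to 0.65. A second Gclc probe set was called at both days (1.06 and 1.21). Srxn1 (sulfiredoxin) rose by 0.81 ± 0.19 and 0.63 ± 0.19, and Gsr, which regenerates reduced glutathione, was called at day 3 only (0.66 ± 0.16, then 0.42 ± 0.16). The day 7 call of Srxn1 was lost without TAA animal 1 or 2 or vehicle animal 3, at 0.55 to 0.60. Me1, Mgst2 and Cbr1 were called at day 7 only, at 1.21 ± 0.30, 0.70 ± 0.13 and 0.68 ± 0.09, where Cbr1 lost its call without TAA animal 1 (0.58). Nqo1, a classic NRF2 target, was not called. It had 10.98, 10.99 and 10.51 in TAA livers at day 3, against 10.16, 9.59 and 9.52 in vehicle livers, and although these did not overlap the change was 1.07 ± 0.51 (adjusted p = 0.187), which was called only in fits of the compared groups alone. At day 7 the change of Nqo1 was 0.56 ± 0.51 (adjusted p = 0.553), with a vehicle liver at 10.50 above the lowest TAA liver at 10.44. Txnrd1 (thioredoxin reductase) missed the fold threshold with one probe set (0.58 and 0.53) and passed it with the other (0.92 and 0.79).

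**Figure D2:**
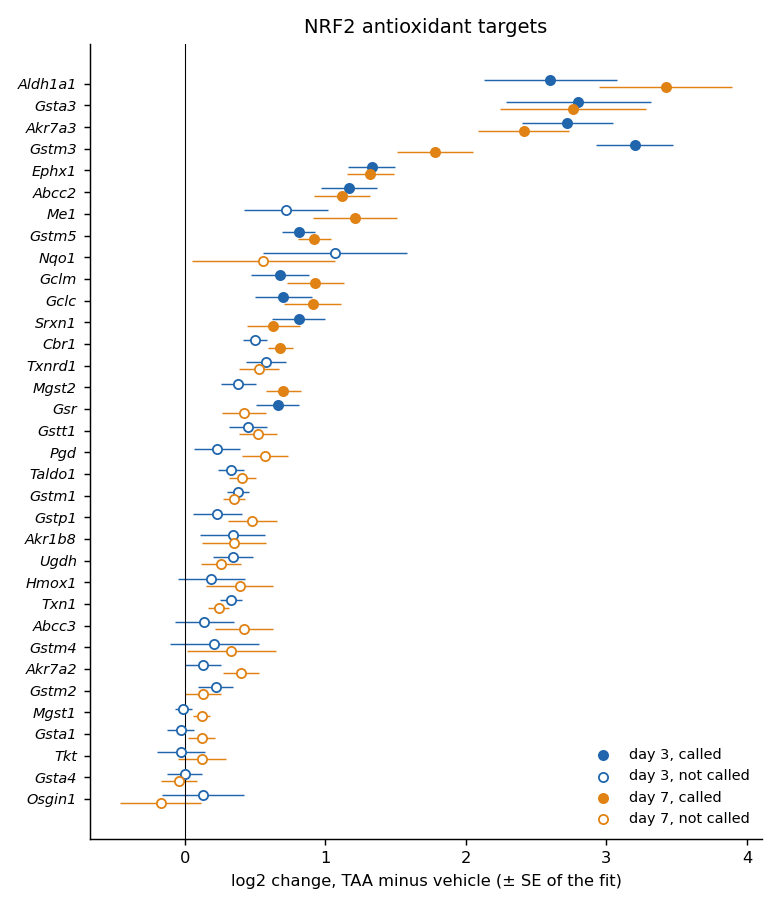
Log2 change (horizontal axis, TAA minus vehicle, ± SE of the limma fit, n = 3 against 3 animals) of all 34 measured NRF2 targets at day 3 (blue) and day 7 (orange), with filled points for called genes. The members run from Aldh1a1, at 2.60 and 3.42, to Osgin1, at 0.13 and -0.17, and 31 members at day 3 and 32 at day 7 were above 0.

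NRF2 binds with small MAF proteins to antioxidant response elements, whose core is usually written TGACNNNGC. The promoter windows of 29 of the 34 members, 250 bases before to 50 bases after the annotated start, were searched for these letters on both strands (RefSeq, build GRCr8). Of their 32 windows, 10 held a match (31.2%), against 12.1% of all 33469 windows of that length. A match was found in 6 of the 12 members with a window that were called at either day and in 4 of the 17 that were not. Called members without a match were Gstm3, Akr7a3, Aldh1a1, Gclc, Srxn1 and Cbr1, and a second window of Gsta3 held none. Below are the windows of 4 called members, printed 5′ to 3′ on the coding strand with the match in capitals, because they show where the core letters lie relative to the start. In Gclm (chr2:213031885-213032184, + strand) the match lies 172 bases before the start and reads on the opposite strand, in Gsta3 (chr9:31154739-31155038, + strand) it lies 17 bases before, in Gstm5 (chr2:198219519-198219818, + strand) there are 2, at 113 and 53 bases before, and in Abcc2 (chr1:252613625-252613924, + strand) it begins 18 bases after the start. A match describes letters only and says nothing of binding.
Gclm: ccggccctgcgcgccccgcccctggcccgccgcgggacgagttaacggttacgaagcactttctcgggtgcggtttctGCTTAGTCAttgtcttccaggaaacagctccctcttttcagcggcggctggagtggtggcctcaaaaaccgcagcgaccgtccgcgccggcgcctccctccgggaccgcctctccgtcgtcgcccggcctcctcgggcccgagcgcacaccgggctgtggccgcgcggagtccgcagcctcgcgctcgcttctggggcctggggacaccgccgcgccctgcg
Gsta3: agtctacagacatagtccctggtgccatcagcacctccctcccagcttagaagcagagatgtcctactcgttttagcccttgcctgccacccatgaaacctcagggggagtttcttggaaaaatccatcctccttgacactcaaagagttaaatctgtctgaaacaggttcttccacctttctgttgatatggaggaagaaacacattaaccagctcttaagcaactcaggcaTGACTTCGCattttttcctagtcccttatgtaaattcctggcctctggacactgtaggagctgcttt
Gstm5: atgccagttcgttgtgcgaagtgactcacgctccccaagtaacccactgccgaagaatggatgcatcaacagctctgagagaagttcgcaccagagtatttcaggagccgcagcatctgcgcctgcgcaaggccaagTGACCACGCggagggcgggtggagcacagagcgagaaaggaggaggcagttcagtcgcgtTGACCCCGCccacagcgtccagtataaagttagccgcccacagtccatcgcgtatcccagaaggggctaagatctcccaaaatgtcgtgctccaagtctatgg
Abcc2: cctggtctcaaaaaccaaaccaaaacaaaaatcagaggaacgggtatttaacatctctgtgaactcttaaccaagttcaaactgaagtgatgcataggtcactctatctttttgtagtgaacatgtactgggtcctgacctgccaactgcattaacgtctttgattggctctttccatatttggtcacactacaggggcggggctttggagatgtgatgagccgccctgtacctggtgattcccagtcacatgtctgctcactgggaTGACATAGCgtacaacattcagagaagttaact

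Targets of the xenobiotic receptors CAR and PXR overlapped in part with the NRF2 list. Of 22 members, 5 rose and 1 fell at day 3 and 6 rose and 1 fell at day 7, with medians of 0.05 and 0.04. Rises made up 22.7% and 27.3% of the list, against 1.11% and 0.97% of all genes. Aldh1a1, Ephx1, Abcc2 and Por have been described above. The others were Ces2c, a carboxylesterase (0.87 ± 0.23 and 0.72 ± 0.23, the day 7 call lost without TAA animal 2 or 3 or vehicle animal 1 or 3 at 0.59 to 0.72), and at day 7 Ugt2b1. The P450 genes most used as markers of these receptors were not called: Cyp3a23-3a1 had changes of 0.45 and 0.20, Cyp3a2 of -0.03 and -0.22. The member that fell was Nr1i3, the gene of CAR itself, with 8.30, 8.72 and 8.22 in TAA livers at day 3, against 9.17, 9.56 and 9.19 in vehicle livers, and 7.72, 8.50 and 7.91 in TAA livers at day 7, against 9.08, 9.07 and 9.03. The groups were apart at both days, with changes of -0.89 ± 0.29 (adjusted p = 0.0238) and -1.01 ± 0.29 (adjusted p = 0.00983). Nr1i3 lost its call at day 3 without TAA animal 1 or 3 or vehicle animal 2 (-0.84 to -0.77) and at day 7 without TAA animal 1 (-0.85).

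UDP-glucuronosyltransferases attach glucuronic acid to lipophilic compounds. Ugt2b7 had values of 9.14, 8.85 and 9.32 in TAA livers at day 3, against 6.94, 7.04 and 6.86 in vehicle livers, a rise of 2.16 ± 0.22 (adjusted p = 4.14e-16). At day 7 the TAA livers were at 7.70, 9.01 and 8.18 and the vehicle livers at 6.91, 6.95 and 6.89, so TAA livers stayed above vehicle livers but were more spread (1.38 ± 0.22, adjusted p = 3.78e-07). Ugt2b1 showed a larger change at day 7 than at day 3, 1.65 ± 0.31 (adjusted p = 3.29e-05) beside 0.72 ± 0.31 (adjusted p = 0.13), although neither gene passed the test of the difference between the days (adjusted p = 1.0 each).

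Of 16 targets of p53, which are induced by DNA damage and other stress, 4 rose and none fell at day 3 (25.0% higher, against 1.11% of all genes), and 2 rose and none fell at day 7 (12.5%, against 0.97%). The medians were 0.04 and 0.14, against -0.01 and -0.02 over all genes. Ccng1 (cyclin G1) had 9.42, 9.56 and 9.38 in TAA livers at day 3, against 8.14, 8.38 and 8.31 in vehicle livers, and 9.61, 9.89 and 10.17 in TAA livers at day 7, against 8.50, 8.32 and 8.44. With no overlap at either day, it rose by 1.18 ± 0.18 (adjusted p = 4.5e-08) and by 1.47 ± 0.18 (adjusted p = 4.5e-12). Mdm2, the ubiquitin ligase that limits p53, rose by 1.12 ± 0.19 and 1.17 ± 0.19 with the probe set of highest mean, while its other probe set gave 0.34 and 0.37 and was not called. Cdkn1a (the cell cycle inhibitor p21) and Mgmt (which repairs alkylated guanine) were called at day 3 only, at 0.90 ± 0.32 (adjusted p = 0.0452) and 0.69 ± 0.24 (adjusted p = 0.0392). A second Cdkn1a probe set was called at neither day (0.40 and 0.15). Both calls were near the threshold: that of Cdkn1a was lost without TAA animal 2 or 3, vehicle array 1 or any 1 vehicle animal (0.70 to 0.94) and with quantile normalization (0.87), that of Mgmt without TAA animal 2 or 3, vehicle array 2 or 4 or any 1 vehicle animal (0.53 to 0.75).

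Of 21 heat shock genes, 5 rose at day 3 and 2 at day 7, none fell, and the medians were 0.37 and 0.33, with 19 and 18 members above 0. The share called higher was 23.8% and 9.52%, against 1.11% and 0.97% of all genes. Hspb1, a small heat shock protein, had 9.96, 10.33 and 9.68 in TAA livers at day 3, against 8.01, 7.60 and 8.23 in vehicle livers, a rise of 2.05 ± 0.42 (adjusted p = 0.000103). At day 7 its values were 8.86, 8.65 and 7.89 in TAA livers, against 7.97, 8.34 and 7.73 in vehicle livers, so the groups overlapped and the change of 0.46 ± 0.42 was not called. The members called at both days were Hsp90ab1, the constitutive HSP90 (0.67 ± 0.11 and 0.62 ± 0.11), and Cct2, a subunit of the TRiC chaperonin that folds actin and tubulin (0.82 ± 0.13 and 0.74 ± 0.13). The TRiC subunits Cct3 and Cct5 were called at day 3 (0.68 and 0.64).

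Of 33 ribosome biogenesis genes, 4 rose at day 3 and 2 at day 7, with medians of 0.35 and 0.28 and with 32 and 31 members above 0. That is 12.1% and 6.06% called higher, against 1.11% and 0.97% of all genes. Ncl (nucleolin) rose by 0.72 ± 0.13 and 0.59 ± 0.13, and Ebna1bp2, which takes part in the assembly of the large subunit, by 0.76 ± 0.14 and 0.80 ± 0.14. The day 7 call of Ncl, which was just over 1.5-fold, was lost without TAA animal 1, vehicle array 2, 4 or 6, or vehicle animal 2, at 0.52 to 0.58, and with quantile normalization, at 0.58. Cytosolic ribosomal proteins had medians of 0.31 at both days, and all 24 measured members were above 0 at both. Rpl4 and Rplp0 were called at day 3 and Rpl4 at day 7. That is 8.33% and 4.17% called higher, against 1.11% and 0.97% of all genes. Chaperones of the endoplasmic reticulum lay the other way, with 2 of 25 called lower at day 3, 1 at day 7 and medians of -0.25 and -0.19. These calls are 8.0% and 4.0% of the list, against 0.903% of all genes. The one called at both days was Sdf2l1 (-0.83 ± 0.20 and -0.92 ± 0.20).

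**Figure D3:**
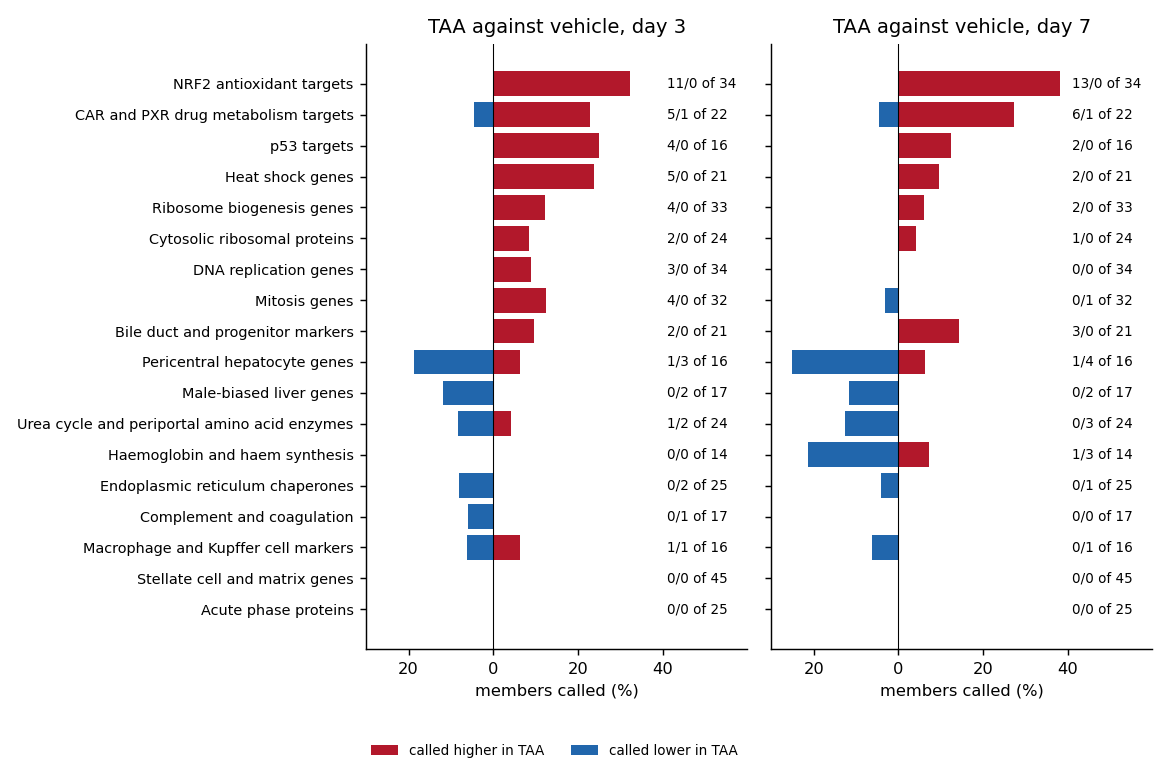
Percentage of the measured members of 18 gene lists (rows) that were called higher (red, to the right) or lower (blue, to the left) in TAA livers than in vehicle livers at day 3 and day 7, with the counts printed as higher/lower of all members. The NRF2 targets had the longest red bars, 11 of 34 at day 3 and 13 of 34 at day 7, and the pericentral genes the longest blue bar at day 7, 4 of 16.

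Genes of cell division were called higher at day 3 and not at day 7, although the difference between the days passed the test for none of them. Of 32 mitosis genes 4 rose at day 3 (Stmn1, Cks2, Aurka and Tubb5), which is 12.5%, against 1.11% of all genes. At that day 31 were above 0 and the median was 0.28, with medians of 0.42, 0.18 and 0.32 in the 3 TAA livers. At day 7 none rose, Cdc25b fell and the median was -0.03. Stmn1 (stathmin, which destabilises microtubules) had 9.24, 9.10 and 9.40 in TAA livers at day 3, against 8.43, 7.47 and 7.81 in vehicle livers, a gap without overlap (1.35 ± 0.35, adjusted p = 0.00318). At day 7 it had 8.48, 8.31 and 7.98 in TAA livers, against 8.01, 7.55 and 7.91 in vehicle livers, which overlapped (0.43 ± 0.35, adjusted p = 0.489). Cdk1, the kinase that drives entry into mitosis, had 7.92, 7.65 and 7.59 in TAA livers at day 3, against 7.36, 6.72 and 6.82 in vehicle livers, but its change of 0.75 ± 0.33 was not called (adjusted p = 0.149), nor were those of Ccnb1, Mki67 and Top2a (0.49 to 0.66). DNA replication genes gave 3 calls of 34 at day 3 (Rfc3, Rfc4 and Dut, all higher) and 0 at day 7, where 4 members had an unadjusted limma p below 0.05. The calls at day 3 are 8.82% of that list, against 1.11% of all genes.

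Stmn1 lost its call without vehicle animal 2 (1.13). Cks2 lost it without TAA animal 1 or 3 or vehicle animal 2 or 3 (0.59 to 0.69). The calls of Aurka and Tubb5 were lost in 5 settings each, at 0.55 to 0.65 for Aurka (TAA animal 1 or 3, vehicle array 2, vehicle animal 2 or 3) and at 0.54 to 0.71 for Tubb5 (any 1 TAA animal, vehicle animal 2 or 3). A second Tubb5 probe set was not called at either day (0.30 and 0.03). The call of Cdc25b at day 7 (-0.86 ± 0.22) was lost in a fit of the TAA and vehicle groups alone and without vehicle animal 3 (-0.52), whose value of 7.78 was about 1 log2 unit above the others.

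Genes that mark pericentral hepatocytes, the zone where thioacetamide is oxidised, did not move as a block. Of 16 members, 3 fell and 1 rose at day 3, 4 fell and 1 rose at day 7, and the medians were -0.07 and -0.20. Falls made up 18.8% and 25.0% of the list, against 0.903% of all genes at each day. The 2 largest falls of all called genes at either day belonged to this list. Oat, which links ornithine to glutamate and proline, had 9.73, 9.27 and 9.18 in TAA livers at day 3, against 11.66, 12.17 and 12.33 in vehicle livers. At day 7 it had 8.39, 9.47 and 9.70 in TAA livers, against 11.72, 11.93 and 12.62 in vehicle livers. The highest TAA liver was well below the lowest vehicle liver both times, with changes of -2.66 ± 0.34 (adjusted p = 7.79e-11) and -2.90 ± 0.34 (adjusted p = 1.64e-12). Inmt, an amine and thioether methyltransferase, had 7.58, 7.54 and 7.16 in TAA livers at day 3, against 9.25, 11.45 and 10.47 in vehicle livers, and 7.52, 7.39 and 7.4 in TAA livers at day 7, against 10.21, 10.65 and 10.64. The TAA livers were uniformly low while vehicle livers of day 3 were spread over 2 log2 units, and the changes were -2.96 ± 0.51 (adjusted p = 2.76e-06) and -3.07 ± 0.51 (adjusted p = 1.46e-06).

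Slc13a3, a dicarboxylate transporter, fell by 0.87 at both days. Glul (glutamine synthetase), which is confined to the hepatocytes next to the central vein, was called at day 7 (-0.74 ± 0.18, adjusted p = 0.00267) and not at day 3 (-0.43 ± 0.18, adjusted p = 0.127). Its 3 probe sets differed: a second was called at both days (-1.02 and -1.24) and the third at neither (-0.26 and -0.51). Cyp1a2 (-0.39 and -0.63), Cyp7a1 (0.92 and 0.83) and Axin2 (0.12 and -0.03) were not called. In whole liver, fewer cells of a type and less mRNA per cell cannot be told apart.

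Further enzymes of amino acid breakdown fell. Prodh, which oxidises proline in mitochondria, had 10.19, 9.88 and 10.11 in TAA livers at day 3, against 11.10, 11.36 and 11.25 in vehicle livers (-1.18 ± 0.20, adjusted p = 1.55e-06), and fell by 1.15 at day 7, while a second probe set gave -0.05 and -0.10. Kynu (kynureninase, of tryptophan breakdown) fell by 1.03 ± 0.15 and 1.11 ± 0.15. The urea cycle enzymes Cps1, Otc, Ass1 and Arg1 were not called at either day, and the 24 members of that list gave 1 rise and 2 falls at day 3 and 0 rises and 3 falls at day 7. Falls made up 8.33% and 12.5%, against 0.903% of all genes. Gnmt, which methylates glycine, fell by 0.70 ± 0.24 and 0.82 ± 0.24, but its calls were lost without TAA animal 1 or 3 or vehicle animal 2 or 3 at either day (-0.80 to -0.58), that of day 3 also in a fit of the TAA and vehicle groups alone.

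Of 22 genes of bile acid synthesis and transport, 1 rose and 1 fell at each day, with medians of -0.14 and -0.24. Each is 4.55% of the list, against 1.11% and 0.97% of all genes for rises and 0.903% for falls. The fall at day 3 was that of Slc27a5. This gene, coding for the ligase that activates bile acids before conjugation, had 10.64, 10.58 and 10.68 in TAA livers at day 3, against 12.04, 12.01 and 12.44 in vehicle livers, which is a fall of 1.53 ± 0.26 on the log2 scale (adjusted p = 1.42e-06). At day 7 the TAA livers were at 11.50, 11.73 and 11.33, still below the vehicle livers at 11.83, 11.95 and 12.42, but the change was smaller and not called (-0.55 ± 0.26, adjusted p = 0.17). The opposite order was seen for the carboxylesterase Ces1d. At day 7 it had 11.07, 10.75 and 9.74 in TAA livers, against 12.12, 12.29 and 11.84 in vehicle livers (-1.56 ± 0.22, adjusted p = 1.14e-08), whereas at day 3 the groups overlapped (-0.64 ± 0.22, adjusted p = 0.0434). The day 3 call of Ces1d was lost without TAA animal 1 or 3, vehicle array 1 or vehicle animal 2 or 3, at -0.61 to -0.46, and in a fit of the compared groups alone.

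Hsd11b1, which regenerates corticosterone, fell by 0.85 ± 0.18 and 1.12 ± 0.18. Slc13a4, a sulfate transporter, fell by 1.12 ± 0.27 and 1.41 ± 0.27, Nrbp2, a pseudokinase, by 1.49 ± 0.19 and 1.41 ± 0.19, the lipid kinase Pik3c2g by 1.35 ± 0.26 and 1.05 ± 0.26, the sugar kinase Fggy by 1.07 ± 0.11 and 0.98 ± 0.11, and the P450 Cyp4f4 by 1.08 ± 0.13 and 0.93 ± 0.13. Gckr (glucokinase regulator) and Pc (pyruvate carboxylase) fell by 0.74 to 0.79. Among genes called at day 3 alone were the vasopressin receptor Avpr1a (-1.53 ± 0.31) and the stress regulator Nupr1 (-1.45 ± 0.36). Scd, the desaturase that makes oleate, was not called in spite of 11.06, 10.62 and 11.70 in TAA livers at day 3, against 13.39, 12.88 and 12.59 in vehicle livers (-1.82 ± 0.72, adjusted p = 0.0871), although it was called in a fit of the TAA and vehicle groups alone. At day 7 its values overlapped (-0.10 ± 0.72).

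Single genes on the lists of sex-biased genes were called. In rats Cyp2c12 is the female-specific P450, kept low in males by their pulses of growth hormone. In these male livers it had 12.37, 11.80 and 12.05 after TAA at day 3, against 9.90, 8.68 and 8.76 after vehicle, and 11.93, 12.30 and 12.10 after TAA at day 7, against 8.76, 9.02 and 9.15. No TAA value was within 1 log2 unit of a vehicle value, and the rises were 2.96 ± 0.49 (7.81-fold, adjusted p = 1.18e-06) and 3.13 ± 0.49 (adjusted p = 2.89e-07). Of 16 genes listed as female-biased, Cyp2c12 was the only one that rose at day 3, and Sult2a6 joined it at day 7. Rises made up 6.25% and 12.5% of the list, against 1.11% and 0.97% of all genes. Falls made up 6.25% at each day, against 0.903%. Hsd3b5, also on that list, fell at both days (-0.88 ± 0.12 and -0.97 ± 0.12). Its place among female-biased genes was not checked, so its fall is not read as that of a female-biased gene.

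Of 17 male-biased genes 2 fell at each day and none rose, with medians of -0.24 and -0.22 and 2 members above 0. The falls are 11.8% of the list, against 0.903% of all genes. Obp3, a lipocalin of the alpha-2u globulin family, had 11.40, 11.17 and 9.66 in TAA livers at day 3, against 11.90, 12.33 and 12.47 in vehicle livers, and 9.94, 10.10 and 10.28 in TAA livers at day 7, against 12.56, 12.64 and 12.52. One TAA liver of day 3 was much lower than the other two, and at day 7 all were low (-1.49 ± 0.51, adjusted p = 0.0378, then -2.47 ± 0.51, adjusted p = 0.00016). The day 3 call of Obp3 was lost without TAA animal 3 or vehicle animal 2 or 3 (-1.44 to -0.95) and in a fit of the compared groups alone. A second Obp3 probe set was called at both days (-1.46 and -2.43). Akr1c1 fell by 1.09 ± 0.36 and 1.47 ± 0.36, calls that were lost at day 3 without TAA animal 2 or 3 or vehicle animal 2 or 3 (-1.07 to -0.97) and at day 7 without TAA animal 1 (-0.78) and in a fit of the compared groups alone. Cyp2c11, the main male-specific P450, was not called (-0.28 ± 0.18 and -0.27 ± 0.18).

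For markers of other cells and tissues, the share to compare with is 2.02% of all genes called at day 3 and 1.87% at day 7. A list without calls is near that share and is given as a description. Of 45 stellate cell and matrix genes none was called at either day, with limma giving 5 members an unadjusted p below 0.05 each day, changes between -0.40 and 0.49 and medians of 0.01 and 0.02. None of the 25 acute phase genes was called either (5 and 4 members at an unadjusted p below 0.05, medians of -0.02 and -0.06). Of 16 macrophage and Kupffer cell genes, Lyz2 (lysozyme) rose at day 3 (1.27 ± 0.32, adjusted p = 0.00252, lost without TAA animal 2 at 1.04) and Cd14 fell at both days (-0.82 ± 0.20 and -0.62 ± 0.20). Each such call is 6.25% of that list. The day 7 call of Cd14 was lost without TAA animal 3, vehicle array 1 or 3 or vehicle animal 1 or 3 (-0.60 to -0.47). The macrophage markers Cd68, C1qa, C1qb and Csf1r summed to 2487 to 2858 in TAA livers and 1905 to 2964 in vehicle livers at day 3, and to 2068 to 2599 in TAA livers and 1365 to 2362 in vehicle livers at day 7. Skeletal muscle, adipose and exocrine pancreas genes gave 0 calls, with 0 members at an unadjusted limma p below 0.05.

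Of 21 bile duct and progenitor markers, 2 rose at day 3 and 3 at day 7 (9.52% and 14.3%, against 1.11% and 0.97% of all genes). Krt8 and Krt18, the keratin pair that hepatocytes also express, rose by 1.22 ± 0.24 and 0.92 ± 0.18 at day 3 and by 0.89 ± 0.24 and 0.71 ± 0.18 at day 7, where Krt8 lost its call without TAA animal 1 or vehicle animal 3 (0.68 to 0.77). Epcam, an adhesion protein of bile duct and progenitor cells, had 8.51, 8.76 and 9.21 in TAA livers at day 7, against 7.81, 7.65 and 7.72 in vehicle livers (1.10 ± 0.25, adjusted p = 0.000822), and at day 3 its groups overlapped (0.46 ± 0.25). The bile duct markers Krt19, Krt7 and Tspan8 were not called. The summed level of Krt19, Krt7, Epcam and Tspan8 was 515 to 745 in TAA livers and 375 to 401 in vehicle livers at day 7, and 477 to 589 in TAA livers and 403 to 541 in vehicle livers at day 3. Epcam makes up most of that sum, and the median change of the 4 markers was -0.08 at day 3 and -0.18 at day 7.

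Of 14 genes of haemoglobin and haem synthesis, none was called at day 3, and 3 fell and 1 rose at day 7, with medians of 0.02 and -0.07. The falls are 21.4% of the list, against 0.903% of all genes. The member that rose was Tfrc, the transferrin receptor (0.92 ± 0.33, adjusted p = 0.0499), whose call was lost without any 1 TAA animal, vehicle array 4 or 6 or any 1 vehicle animal (0.79 to 1.01), while a second probe set was called at both days (1.08 and 0.99). The 3 that fell are made in red blood cells and their precursors. Alas2, the erythroid enzyme of haem synthesis, had 8.42, 8.99 and 8.70 in TAA livers, against 9.81, 10.18 and 10.85 in vehicle livers (-1.58 ± 0.37, adjusted p = 0.00115), and Hbb and Hba-a3 (globins) fell by 1.08 ± 0.32 and 1.00 ± 0.27. Without vehicle animal 3 the globin calls were lost, at -0.95 for Hbb and -0.79 for Hba-a3, and Hbb also lost its call without TAA animal 1. At day 3 none of the 3 was called (-0.77 to -0.54). Hbb and Alas2 summed to 5883 to 8153 in TAA livers, against 13233 to 18973 in vehicle livers, at day 7 and to 6814 to 12880 in TAA livers, against 11806 to 15814, at day 3. The part of blood left in the tissue in these differences was not tested.

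The calls of the 2 days were largely shared. Of the genes called higher, 64 were higher at both days, which is 55.2% of the 116 at day 3 and 63.4% of the 101 at day 7. Of those called lower, 55 were lower at both days, 58.5% of the 94 at each day. No gene was called in opposite directions. Of the 52 genes called higher at day 3 alone, 51 had a positive change at day 7, and all 37 genes called higher at day 7 alone were positive at day 3. Of the 39 genes called lower at day 3 alone 38 were negative at day 7, and likewise all 39 called lower at day 7 alone were negative at day 3. Over all 10411 genes the changes at the 2 days, which come from separate animals, correlated with r = 0.762, a description across genes, which are not independent replicates, and with r = 0.914 over the 286 genes called at either day, which were chosen on these same changes.

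**Figure D4:**
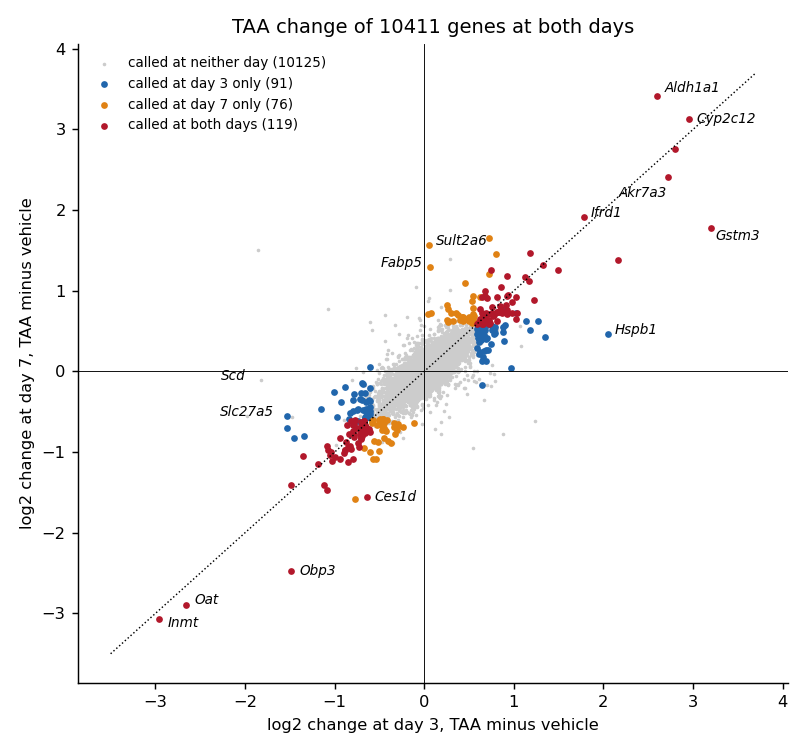
Log2 change of TAA minus vehicle at day 3 (horizontal) and day 7 (vertical) for 10411 genes, coloured by the day at which they were called, with the dotted line marking equal changes. The 119 genes called at both days have the same sign at both. Gstm3, called at both days, and Hspb1, called at day 3, lie below the line with larger rises at day 3, while Sult2a6 and Fabp5 lie near 0 at day 3 and are higher at day 7.

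The change between days was tested as the difference of the TAA effects, with each day set against its own vehicle animals. No probe set was called (0.0%), the lowest limma adjusted p was 0.979, and 477 of 15866 probe sets had an unadjusted p below 0.05. Between vehicle livers of day 7 and day 3 no probe set was called either (0.0%), with 166 at an unadjusted limma p below 0.05. Both counts are less than a share of 0.05 of the probe sets, the share expected where no probe set differs. The absence of calls therefore does not show that the days were alike. Among the 10 genes with the smallest p were Cyp2a3 (0.47 ± 0.13), Gstm3 (-1.43 ± 0.39), Tacc3, a spindle protein (-0.82 ± 0.26), Slc2a2, the glucose transporter of hepatocytes (0.64 ± 0.20), and the growth factor Hgf (0.37 ± 0.12), with adjusted p values of 0.979 to 1.0. The others were Rnpc3, Rbmx, Sgip1, Scnn1b and Usp5, with differences between -0.44 and 0.41.

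Genes called at day 7 and near 0 at day 3 are given as a description. Sult2a6, a sulfotransferase of bile acids and steroids, had 10.41, 10.09 and 10.13 in TAA livers at day 7, against 8.57, 7.66 and 9.71 in vehicle livers (1.57 ± 0.51, adjusted p = 0.0305), and 8.56, 9.47 and 9.87 in TAA livers at day 3, against 9.40, 8.60 and 9.75. The vehicle livers ranged over 2 log2 units, and the call at day 7 was lost in 6 settings at 1.08 to 1.63 (without any 1 TAA animal, vehicle array 2 or vehicle animal 1 or 2) and in a fit of the compared groups alone. Fabp5, a fatty acid binding protein, had 11.74, 11.37 and 12.25 in TAA livers at day 7, against 10.85, 10.35 and 10.29 in vehicle livers (1.29 ± 0.43, adjusted p = 0.0373, lost without TAA animal 1 or 3 or vehicle animal 2 or 3 at 1.06 to 1.31). S100g, a calcium-binding protein, was called at both days, with 6.66, 7.20 and 6.72 in TAA livers at day 7, against 5.59, 5.60 and 5.60 in vehicle livers (0.74 ± 0.15 at day 3, 1.26 ± 0.15 at day 7).

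Other genes with large rises stood outside the lists. Ifrd1, a transcriptional coregulator, had 8.84, 9.14 and 8.38 in TAA livers at day 3, against 6.79, 7.27 and 6.94 in vehicle livers, and 8.90, 8.80 and 9.06 in TAA livers at day 7, against 7.12, 7.07 and 6.80. It was higher in every TAA liver by 1.78 ± 0.29 (adjusted p = 5.09e-07) and 1.92 ± 0.29 (adjusted p = 6.74e-08). Anxa7, an annexin, rose by 1.49 ± 0.25 and 1.26 ± 0.25 with 1 probe set and had changes of 0.25 and 0.15 with the other, and the LIM protein gene Csrp2 was called at day 3 only (1.18 ± 0.19, then 0.51 ± 0.19). Adh4, an alcohol dehydrogenase, was called at day 7 only (1.46 ± 0.50, adjusted p = 0.0426), a call lost without TAA animal 1 or 2 or any 1 vehicle animal (1.03 to 1.65). Among the falls called at day 3 only were Abcc9, a subunit of potassium channels (-1.34 ± 0.41), whose other probe sets were not called at either day, and Fabp7, a fatty acid binding protein (-1.15 ± 0.34). Abcc9 lost its call without TAA animal 1 or 3 or vehicle animal 2 or 3 (-1.30 to -1.12), and Fabp7 without TAA animal 1 or vehicle animal 2 (-1.0 to -0.97). At day 7 Plekhb1 (-1.09 ± 0.31), R3hdm2 (-1.08 ± 0.24) and the olfactory receptor gene Olr59 (-1.09) were among the largest falls, and Plekhb1 lost its call without TAA animal 1 or vehicle animal 2 (-1.01 to -0.91).

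Lists of energy and lipid metabolism gave few calls, as did all genes (2.02% at day 3 and 1.87% at day 7). None of 40 PPARA targets of fatty acid oxidation was called. Of them, 15 at day 3 and 12 at day 7 had an unadjusted limma p below 0.05 (medians of -0.06 and -0.10). Nor was any of 33 respiratory chain genes (11 and 8) or 16 apolipoproteins (7 and 6, medians of -0.15 and -0.14) called. Outside metabolism, none of 28 proteasome subunits was called (15 and 9, medians of 0.20 and 0.09), with 23 and 18 members above 0. Over all 15866 probe sets, 3492 at day 3 and 3664 at day 7 had such a p. Of 22 genes of fatty acid synthesis Mlxipl, the carbohydrate response factor, fell at both days (-0.67 ± 0.14 and -0.61 ± 0.14), and its calls were lost without TAA animal 2 or vehicle animal 1 at day 3 (-0.54 to -0.53) and without TAA animal 1, vehicle array 2 or 3 or vehicle animal 3 at day 7 (-0.58 to -0.47). Of 16 type I interferon genes Rsad2, an antiviral enzyme, fell at both days (-1.05 ± 0.30 and -1.04 ± 0.30), and of 23 interferon gamma and antigen presentation genes Cd74, the invariant chain, rose at day 3 (1.03 ± 0.29). Rsad2 lost its call without TAA animal 1 or 2 or vehicle animal 2 at day 3 (-0.93 to -0.88) and without TAA animal 1 or vehicle animal 3 at day 7 (-0.98 to -0.84), and Cd74 without vehicle animal 2 (0.72).

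Acetamide, which differs from thioacetamide in having oxygen for sulfur, was given at 3000 mg/kg for the same numbers of days. The doses differ, so the changes are set side by side without a test. Acetamide and TAA livers are both set against the same vehicle animals. At day 3 TAA livers had 210 called genes and AA livers 63 (0.605%). At day 7 TAA livers had 195 and AA livers 500 (4.8%), of which 350 were higher (3.36%) and 150 lower (1.44%). Among the TAA genes with large changes, Gstm3 had changes of 3.20 with TAA and 0.09 with AA at day 3 and of 1.78 and 0.75 at day 7. For Aldh1a1 the changes were 2.60 with TAA and -0.68 with AA at day 3, and 3.42 and 2.86 at day 7. Cyp2c12 had 2.96 with TAA and 0.43 with AA at day 3, and 3.13 and 2.17 at day 7. Of the genes that fell, Oat had -2.66 with TAA and -0.06 with AA at day 3, and -2.90 and -1.56 at day 7, and Inmt had -2.96 with TAA and 0.56 with AA at day 3, and -3.07 and -2.14 at day 7.

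With TAA these 5 genes were called at both days, and with AA at day 7 only. Akr7a3 was called with both compounds at both days, at 2.72 with TAA and 1.15 with AA at day 3, and at 2.41 and 0.92 at day 7. For other genes the TAA value was past the threshold at day 7 and the AA value was not. Ugt2b7 had 1.38 with TAA and -0.05 with AA, S100g 1.26 and 0.17, and Hsd11b1 -1.12 and -0.28. Of 32 mitosis genes, none was called higher at day 7 with TAA and 22 with AA (68.8%, against 3.36% of all genes), with medians of -0.03 with TAA and 0.94 with AA. Cdk1 had values of 6.67, 6.47 and 6.67 in TAA livers and 7.92, 8.73 and 9.57 in AA livers, against 7.14, 6.37 and 6.85 in vehicle livers.

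Methapyrilene and aflatoxin B1 livers of day 7 were compared with TAA livers directly, so that the shared vehicle animals drop out of the difference. The doses were not matched (60 mg/kg MPy, 0.24 mg/kg AB1 and 19.2 mg/kg TAA), so a difference is one between these treatments as given. TAA minus MPy gave 95 called genes (0.912%), 26 higher (0.25%) and 69 lower (0.663%). The genes higher in TAA livers included S100g, with 6.66, 7.20 and 6.72 in TAA livers, against 5.29, 5.51 and 5.55 in MPy livers (1.41 ± 0.15, adjusted p = 3.96e-16), the apolipoprotein Apoa4 (1.5 ± 0.35), pyruvate kinase Pklr (1.37 ± 0.30) and Ccng1 (0.86 ± 0.18). Apoa4 lost its call without MPy animal 3 (1.26). Cyp2c12 (1.70 ± 0.49, adjusted p = 0.0293), Fabp5 (1.47 ± 0.43) and the serine dehydratase gene Sds (1.59 ± 0.43) were called too, but lost this when single TAA or MPy animals were left out, in 5 settings at 1.52 to 1.79 for Cyp2c12 (any 1 TAA animal, MPy animal 1 or 3), 5 at 1.24 to 1.54 for Fabp5 (TAA animal 1 or 3, any 1 MPy animal) and 3 at 1.08 to 1.55 for Sds (TAA animal 2, MPy animal 1 or 2). Sds also lost its call in a fit of the TAA and MPy groups alone.

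Lower in TAA than in MPy livers were the hormone gene Fgf21, with 7.48, 7.04 and 7.83 in TAA livers, against 11.40, 11.16 and 10.84 in MPy livers (-3.68 ± 0.26, adjusted p = 6.04e-31), the pseudokinase gene Trib3 (-2.45 ± 0.23), Igfbp1 (-2.72 ± 0.57) and the P450 Cyp4b1 (-2.67 ± 0.16). None of these 4 was called between TAA and vehicle livers at day 7, where their changes lay between -0.15 and 0.24. Of the 29 genes of the ATF4 amino acid and stress response, 10 were called lower in TAA than in MPy livers (34.5%, against 0.663% of all genes). Oat and Inmt, low after TAA, were also lower than in MPy livers (-2.64 ± 0.34 and -2.56 ± 0.51). Of 32 mitosis genes 12 were called lower in TAA than in MPy livers (37.5%, against 0.663% of all genes) and none higher. Among them were Mki67, with 4.98, 5.04 and 4.99 in TAA livers, against 6.11, 5.94 and 6.31 in MPy livers (-1.11 ± 0.26, adjusted p = 0.00261), and Cdk1 (-1.35 ± 0.33, adjusted p = 0.00614, lost without MPy animal 3 at -1.18).

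TAA minus AB1 gave 413 called genes (3.97%), 162 higher (1.56%) and 251 lower (2.41%). At the level of probe sets the count was 569, and 306 in a fit of the TAA and AB1 groups alone. Of 16 p53 targets, 7 were called lower in TAA livers (43.8%, against 2.41% of all genes) and none higher. Other lists had larger shares called lower. Of 23 genes of interferon gamma and antigen processing, 12 were lower (52.2%) and none higher. Of 14 markers of scar-associated macrophages, 7 were lower (50.0%) and 1 higher (7.14%, against 1.56% of all genes). Mdm2 had 8.33, 8.54 and 8.12 in TAA livers, against 10.13, 8.98 and 10.42 in AB1 livers (-1.51 ± 0.19, adjusted p = 7.81e-12), and Cdkn1a 9.31, 10.22 and 9.58 in TAA livers, against 12.10, 10.69 and 12.09 in AB1 livers (-1.92 ± 0.32). Ccng1 (-1.07 ± 0.18) and Mgmt (-2.36 ± 0.24) were lower as well. AB1 animal 2 lay nearest to the TAA livers in Mdm2, Cdkn1a and Ccng1, and Ccng1 was not called in a fit of the TAA and AB1 groups alone. With a block for replicate number added to that fit, Mdm2 and Cdkn1a lost their calls too. Also lower in TAA livers were Dmbt1, a mucosal scavenger protein (-3.34 ± 0.25), the bile duct marker Tspan8 (-2.66 ± 0.23), the laminin chain Lama5 (-2.38 ± 0.17) and Serpina7, thyroxine-binding globulin (-2.72 ± 0.48).

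Higher in TAA than in AB1 livers was Akr7a3, the aflatoxin aldehyde reductase, with 13.56, 13.01 and 13.35 in TAA livers, against 11.39, 11.56 and 11.51 in AB1 livers (1.82 ± 0.32, adjusted p = 3.26e-06). Apoa4 (2.17 ± 0.35), the lipogenic regulator Thrsp (1.79 ± 0.40), Hsd17b2 (1.73 ± 0.27), Sult2a6 (1.99 ± 0.51, lost without AB1 animal 3 at 1.59) and Akr1b7 (1.73 ± 0.52) followed. Akr1b7 had 5.67, 7.03 and 8.79 in TAA livers, against 5.23, 5.70 and 5.36 in AB1 livers, and without TAA animal 3 its call was lost at 0.92. Akr1b7, Apoa4 and Thrsp were not called in a fit of the TAA and AB1 groups alone. Of the 34 NRF2 targets 8 were called higher in TAA than in AB1 livers (23.5%, against 1.56% of all genes) and 1 lower (2.94%, against 2.41%).

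**Figure D5:**
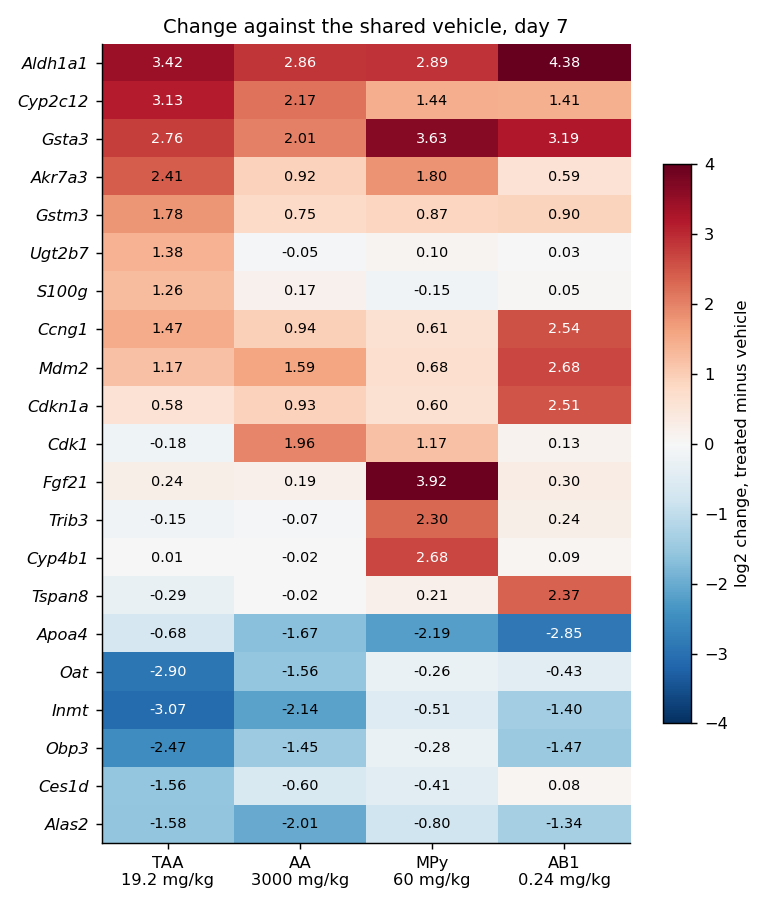
Log2 change against the shared vehicle animals at day 7 (colour and printed number, red higher and blue lower) of 21 genes (rows) after TAA, AA, MPy and AB1 at the doses given under each column. Aldh1a1 and Gsta3 are high in all 4 columns, Ugt2b7 and S100g in the TAA column, Cdk1 in the AA and MPy columns, Fgf21 and Trib3 in the MPy column and Mdm2 and Cdkn1a most in the AB1 column.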

How the data were processed

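Livers of TAA and vehicle rats were profiled on Affymetrix RAE230A arrays. Per the labels and the study's methods, the authors read the arrays with MAS 5.0 and deposited log2 values made by RMA, which corrects background, normalizes quantiles across arrays and summarizes probes (software version not given in the sources used here), so low values are compressed and a change is relative to the other arrays. The number of arrays limits the precision. Here 15866 probe sets were tested with limma 3.58.1 (R 4.3.3) over all 421 arrays with 1 mean per group, with 273 residual and 4.58 prior degrees of freedom. The design named every array as a sample, but the labels give 5 rats where a vehicle group had 6 arrays. These formed 3 pairs whose partners were closer to each other than to the other arrays, so each pair was averaged. The SD of the difference over probe sets was 0.135 to 0.163 between partners and 0.177 to 0.237 between other vehicle arrays of a day. The labels do not say whether arrays of a group came from separate extractions, so p-values measure the spread between these samples, which may be technical in part. A call needed a Benjamini-Hochberg adjusted p below 0.05 and 1.5-fold. Platform annotation gave 12783 probe sets 1 symbol, 312 several and 2771 none, and 12748 symbols were matched by gene ID.

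Named genes were, per day, the 15 largest rises and 15 largest falls among called genes whose TAA arrays all lay beyond the vehicle arrays, the 10 smallest p between days, the 6 largest per side between compounds, and members of the 45 lists. The comparisons, members and lists were chosen with earlier results of these data known. On simulated data 99 of 100 changes of 2-fold were recovered at day 3 and at day 7 and 93 between the days. These changes were put into probe sets drawn at random, so they do not give the recovery for genes of larger spread. In the real data Gstm3 differed 2.69-fold between the days and was not called (limma adjusted p = 0.979). Alternatives were other sets of arrays, a replicate block, quantile normalization, a filter at 6 on the log2 scale, other fold thresholds and leaving out each array or animal. Promoters came from RefSeq (GRCr8). Summaries used Python 3.11.15 with pandas 2.3.3, and plots matplotlib 3.10.9.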

Additional observations from a re-analysis of the deposited data

How the results depend on the processing

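Counts here are of probe sets, beside 289 at day 3, 255 at day 7, 133 for TAA minus MPy and 569 for TAA minus AB1. Without a fold threshold there were 1684, 1513, 472 and 2713, and with a 2-fold threshold 60, 56, 54 and 142. Fitting the TAA and AB1 groups alone gave 306 calls for TAA minus AB1. With the replicate block, which also fitted the compared groups alone, TAA minus AB1 had 208 calls, the change between days 2 and vehicle day 7 minus day 3 had 15; day 3 and day 7 had 343 each. Same-numbered TAA and vehicle arrays correlated in their deviations at 0.247, -0.0548 and -0.0837 at day 3 and at 0.111, -0.222 and -0.00118 at day 7. Vehicle arrays 2 and 3 belong to vehicle animals 1 and 2, so these values and the block do not follow animal numbers. By animal number, TAA 1 with vehicle arrays 1 and 2 gave 0.247 and -0.00624, then 0.111 and 0.275 at day 7. TAA 2 with arrays 3 and 4 gave 0.175 and 0.204, then 0.227 and -0.0471. TAA 3 with arrays 5 and 6 gave 0.151 and 0.00325, then 0.0481 and 0.113. A pairing by animal number was not tested. TAA day 7 minus TAA day 3 without vehicle arrays had 5 calls. Taking the 6 vehicle arrays as separate samples, an alternative chosen after seeing the data as was leaving out both arrays of a pair, gave 324 and 289. Quantile normalization and the filter on low values moved no count by over 1.5 times.

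Leaving out 1 array or animal gave 232 to 344 calls at day 3, 212 to 277 at day 7, 98 to 131 for TAA minus MPy, 388 to 795 for TAA minus AB1, and 0 for the change between days and for vehicle. Of 237 results for named genes, 50 lost their call in at least 1 such setting. The 237 include results that were not called in the main fit and so had no call to lose. Fitting the compared groups alone lost 11 calls and added 8, among them Nqo1, Scd and Cdk1 at day 3. Quantile normalization lost 2, the separate vehicle arrays added 7, and the 2-fold threshold lost 69. The block lost 19 and added 15. Those it lost were Aurka, Cct5, Ces1d, Cks2, Gclc, Gclm, Gnmt and Obp3 at day 3, Akr1c1, Cdc25b, Gnmt and Ncl at day 7, Sds for TAA minus MPy, and Akr1b7, Apoa4, Ccng1, Cdkn1a, Mdm2 and Thrsp for TAA minus AB1. A sign turned for 5 genes that were not called at that day. Fabp5 at day 3 ranged from -0.40 to 0.16 without 1 animal (-0.02 without TAA animal 1) and was -0.30 with the block. Sult2a6 at day 3 ranged from -0.28 to 0.42, with -0.24 without TAA animal 3. Slc2a2 at day 3 ranged from -0.06 to 0.20 and Tubb5 at day 7 from -0.01 to 0.21. Scd at day 7 was 0.11 without vehicle animal 1. The cause of these shifts was not tested. The mean over a gene's probe sets moved 7 of 90 list medians.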
